A study of Homo sapiens with 6 samples.

Results

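Small nucleolar RNA host genes are transcribed into long noncoding RNAs whose introns carry the small RNAs that guide chemical modification of ribosomal and spliceosomal RNA. When the transcript is spliced, the introns are processed to snoRNAs in the nucleolus or to their Cajal body relatives (scaRNAs), and the joined exons leave as a polyadenylated RNA. C/D box snoRNAs guide ribose methylation and H/ACA box snoRNAs guide the conversion of uridine to pseudouridine, while the spliced host RNAs are commonly short lived, because ribosomes that enter them meet early stop codons and trigger nonsense-mediated decay. Many hosts also begin with a run of pyrimidines, the start that ribosomal protein genes use to tie their translation to growth signals through mTOR.

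The genes were taken by name: every gene whose symbol is SNHG followed by a number, plus GAS5, ZFAS1, EPB41L4A-AS1 and DANCR. This gave 32 genes of the 60640 in the tables, on 15 chromosomes, each a lncRNA in GENCODE release 44. PolyA RNA had been sequenced from MOLT-4, an established human line of T-cell acute lymphoblastic leukemia, in 3 libraries of wild type cells, the control of a CRISPR knockout, and in 3 that carry the label IK-KO, where IKZF1 had been targeted. IKZF1 encodes IKAROS, a zinc finger DNA-binding protein that regulates lymphoid genes, and the comparison asks which transcripts differ when it is edited. The edited and control cells were bought, and protein blots in the study show a pair of knockout clones, but the labels name no clone. Differences between lines therefore cannot be told apart from those of IKAROS loss. The labels also do not say whether replicates were separate cultures, so p-values measure only the spread between these libraries, which may be technical.

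IKZF1 itself stood at 134, 124 and 105 FPKM in wild type, against 207, 260 and 207 FPKM in the IK-KO-labelled libraries, a difference of 0.89 on the log2 scale (SE 0.12, limma adjusted p 0.00295). Its RNA was higher, not lower, so the group is named by its label throughout. All 16 T-lineage markers had a mean of at least 1 FPKM over the 6 libraries. Their summed level was 4726 to 4978 FPKM in wild type, against 5428 to 5896 FPKM in the IK-KO-labelled libraries. Of the 16, 13 were called at a limma adjusted p under 0.05, or 81.2% against 19.9% of all tested genes. The calls were 5 higher and 8 lower, where 10.1% of all tested genes were called higher and 9.75% lower. CD4 and CD28 are among the 8, at 2.76 and 6.2 FPKM in wild type, against 0.384 and 0.269 FPKM in the other group. They reached a mean of 1 FPKM only through wild type, so their calls support no count here. Most of the rise in the summed level was TRBC2, at 3357 and 4118 FPKM. The median log2 change of the list was −0.44, and CD2, for example, fell from 61.5 to 5.14 FPKM (limma adjusted p 1.41e-06). The 8 B-lineage markers summed to 9.96 to 13.0 FPKM in wild type, against 2.27 to 2.61 FPKM in the other group, and VPREB1 alone stood at 8.92 and 0.781 FPKM. The 8 myeloid markers summed to 4.42 to 5.14 FPKM, with S100A8 and ELANE at 0. CEBPE alone stood at 4.46 and 4.17 FPKM, and it was the only one with a mean of at least 1 FPKM. The 8 erythroid markers summed to at most 0.726 FPKM, with HBB, HBG1, HBG2 and ALAS2 at 0. Whether the shift in lineage markers has a part in the changes of the host genes was not tested. In bulk RNA, fewer cells of a type and less RNA per cell cannot be told apart.

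Levels are given in FPKM, fragments scaled by transcript length and library depth, so they can be compared between genes. Of the 32 hosts, 27 reached a mean of 1 FPKM over the 6 libraries and were tested on log2(FPKM + 1). The other 5 were low or unseen: SNHG18 and SNHG27 were listed at 0 in all libraries, SNHG28 and SNHG31 never exceeded 0.269 FPKM, and SNHG22 stood at 0.983, 2.55 and 0.415 FPKM in wild type against 0, 0.236 and 0 FPKM in the IK-KO-labelled libraries. RefSeq places 148 small RNAs inside 30 of the 32 hosts. In 12 hosts these are C/D box snoRNAs alone, in 11 H/ACA box snoRNAs alone, in 3 both kinds and in 4 a scaRNA. RefSeq places none in SNHG27 and SNHG28, although GENCODE has a SNORA70 row inside SNHG27.

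The 7 hosts that changed by the test below carry the following small RNAs, shown because the RNA measured here is only the polyadenylated remainder from whose introns they are cut. They are read from GRCh38 on the host's strand, 5′ to 3′, at GENCODE positions, with capitals marking a C box match (TGATGA), the last D box match (CTGA) or the ACA before the last 3 bases, where a search found them. SNORD48 (chr6:31835263-31835326) and SNORD52 (chr6:31837076-31837142) lie in SNHG32, and SNORD49B (chr17:16439505-16439576), SNORD49A (chr17:16440036-16440106) and SNORD65 (chr17:16441226-16441298) in SNHG29. SNORD104 (chr17:64146083-64146152) and SNORA50C (chr17:64146339-64146471) lie in SNHG25, SNORD93 (chr7:22856613-22856686) in SNHG26, SNORA9 (chr7:44985378-44985510, minus strand) in SNHG15, and SNORA73A (chr1:28507366-28507571) in SNHG3 beside its near copy SNORA73B.
SNORD48: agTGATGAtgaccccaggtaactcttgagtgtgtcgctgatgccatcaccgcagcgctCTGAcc
SNORD52: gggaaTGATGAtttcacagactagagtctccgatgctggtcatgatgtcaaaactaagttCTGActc
SNORD49B: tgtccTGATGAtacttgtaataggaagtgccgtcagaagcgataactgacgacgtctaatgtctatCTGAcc
SNORD49A: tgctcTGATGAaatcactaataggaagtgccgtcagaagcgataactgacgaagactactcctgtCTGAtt
SNORD65: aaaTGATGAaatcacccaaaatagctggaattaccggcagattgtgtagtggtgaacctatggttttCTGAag
SNORD104: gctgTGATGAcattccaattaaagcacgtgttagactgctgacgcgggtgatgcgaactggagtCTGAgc
SNORA50C: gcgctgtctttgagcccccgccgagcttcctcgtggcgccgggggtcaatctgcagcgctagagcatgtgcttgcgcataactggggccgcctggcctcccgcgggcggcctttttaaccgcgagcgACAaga
SNORD93: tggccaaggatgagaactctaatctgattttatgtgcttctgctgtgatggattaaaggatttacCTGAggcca
SNORA9: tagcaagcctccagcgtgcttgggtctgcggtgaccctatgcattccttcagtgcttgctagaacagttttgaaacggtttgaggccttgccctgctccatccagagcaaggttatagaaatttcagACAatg
SNORA73A: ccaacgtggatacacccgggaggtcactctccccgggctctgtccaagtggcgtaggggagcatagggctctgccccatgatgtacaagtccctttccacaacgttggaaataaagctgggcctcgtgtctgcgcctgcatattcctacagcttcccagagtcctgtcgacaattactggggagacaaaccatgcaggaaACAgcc
SNORD49A and SNORD49B are paralogs. The H/ACA box RNAs are longer, and they were searched only for the ACA, not for C or D boxes. GAS5 holds SNORD44, SNORD47, SNORD74 to SNORD81 and SNORA103. The small RNAs themselves cannot be followed in polyA libraries: of 140 GENCODE entries inside the hosts, 135 were listed at 0 in all 6 libraries. SNORA16A and SNORA17B are each covered by overlapping entries, so the entries are not all separate RNAs. The small RNAs of GAS5, named from RefSeq, are not among the 140.

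The hosts spanned a wide range of levels. SNHG6, the host of SNORD87, was the most abundant at 532 ± 49.6 FPKM in wild type, against 606 ± 12.8 FPKM in the IK-KO-labelled libraries (SD, n = 3). SNHG29 followed at 338 ± 3.56 and 396 ± 12.3 FPKM, and SNHG5, host of SNORD50A and SNORD50B, at 272 ± 14.6 and 319 ± 34.2 FPKM. GAS5, SNHG8, SNHG32, DANCR and SNHG1 had wild type means from 139 to 227 FPKM, and the order of neighbours in this stretch was close. DANCR and SNHG1, for example, stood at 145 ± 4.81 and 139 ± 7.02 FPKM, a gap within their spread. In all, 9 hosts had a mean over 100 FPKM across the 6 libraries, 13 lay between 10 and 100 FPKM and 5 between 1 and 10 FPKM.

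**Figure D1:**
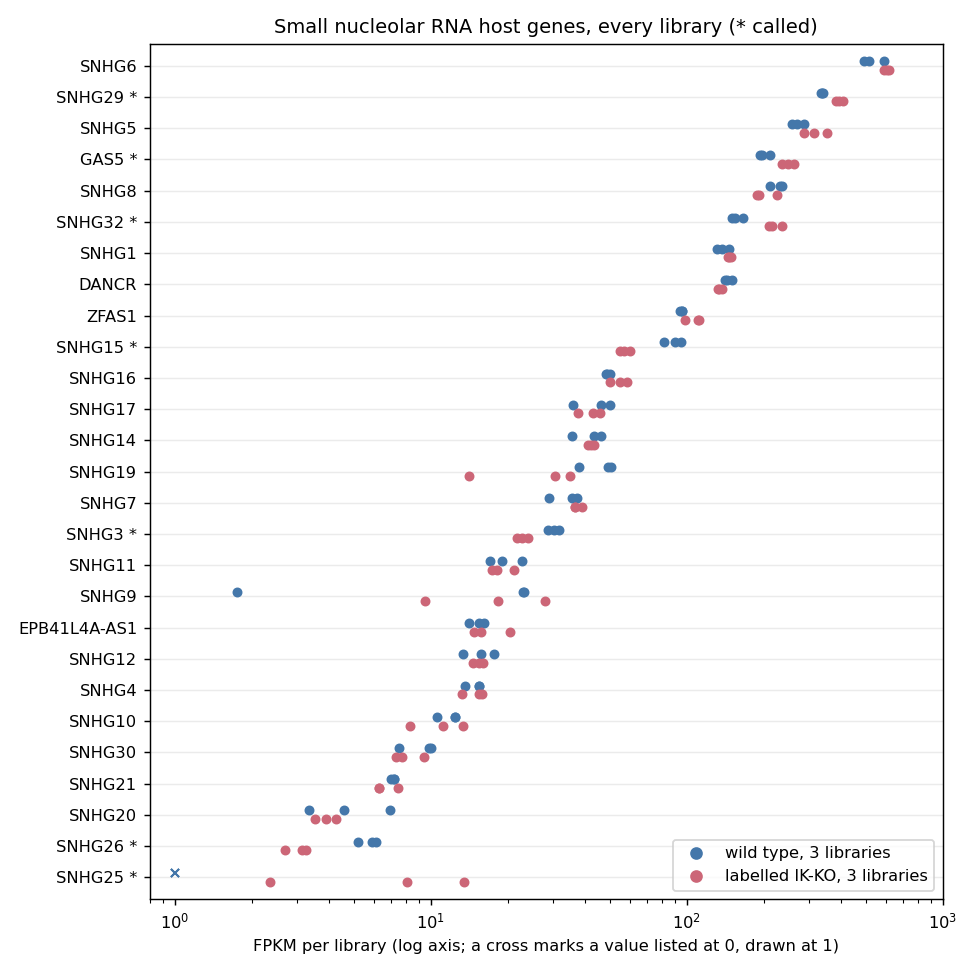
FPKM of the 27 tested host genes in every library on a log axis, blue for the 3 wild type and red for the 3 IK-KO-labelled libraries, ordered by mean level, with an asterisk at the 7 genes called. SNHG6 tops the plot with 493 to 618 FPKM, SNHG25 is listed at 0 in wild type (crosses drawn at 1), and SNHG9 and SNHG19 scatter widely within a group.

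Of the 27 tested hosts, 7 were called at a limma adjusted p under 0.05, or 25.9%, against 19.9 percent of all 12652 genes tested. SNHG32, GAS5 and SNHG29 rose, and SNHG15, SNHG3 and SNHG26 fell, where 10.1 percent of all genes rose and 9.75 percent fell. The other call, SNHG25, came from a gene listed at 0 in wild type that passed the filter only through the other group, and without it 6 of 26 hosts were called, or 23.1%. Among the 1061 tested lncRNA genes 11.1 percent were called. The hosts did not shift together: 14 were higher, SNHG25 among them, and 13 lower. Their median log2 change was 0.0044 beside 0.0168 for all genes, and their median absolute change 0.16 beside 0.18.

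SNHG32, whose introns hold SNORD48 and SNORD52 in the HLA region of chromosome 6 (chr6:31834608-31839766), stood at 150, 166 and 155 FPKM in wild type, against 216, 236 and 209 FPKM in the IK-KO-labelled libraries. All 3 of the latter lay above every wild type library, and so did their confidence bounds. The log2 change was 0.49 (SE 0.06, limma adjusted p 0.00245). The 178 tested genes within 5 Mb had a median change of 0.28, and with that median removed the change of SNHG32 was 0.21, still called at a limma adjusted p of 0.0235.

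GAS5, named for its accumulation in growth-arrested cells and known as a decoy of the glucocorticoid receptor, lies at chr1:173858559-173868882. It had 193, 211 and 197 FPKM in wild type, against 248, 262 and 236 FPKM in the IK-KO-labelled libraries, with no overlap between groups. The log2 change was 0.31 (SE 0.06, limma adjusted p 0.0103). It was not called once the median of its 32 tested neighbours within 5 Mb, 0.19, was removed, at a log2 change of 0.12 and a limma adjusted p of 0.287. The cause of the regional shift was not tested.

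SNHG29, host of SNORD49A, SNORD49B and SNORD65 (chr17:16438767-16478678), stood at 338, 342 and 335 FPKM in wild type, against 385, 409 and 395 FPKM in the IK-KO-labelled libraries. The groups and their confidence bounds were apart, but the change was the smallest of those called, 0.23 on the log2 scale (SE 0.04, limma adjusted p 0.00897). Without a mean-variance trend in the fit its adjusted p was 0.0517.

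SNHG25 is a short host with 340 exon bases (chr17:64145970-64146476) around SNORD104 and SNORA50C. It was listed at 0 in all 3 wild type libraries, against 13.5, 2.35 and 8.06 FPKM in the IK-KO-labelled ones. It was not among the rows marked as not estimated, but an exact 0 in such a table need not mean that no RNA was there. The lower confidence bound was 0 in every library, with upper bounds as high as 28.9 FPKM. It reached the mean of 1 FPKM only through the IK-KO-labelled libraries, so a gene listed like this had to differ, and its call (limma adjusted p 0.00659) supports no count here. No fold is given.

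Among the hosts that fell, SNHG15 changed with the lowest p. It holds SNORA9 and lies at chr7:44983023-44986961. Wild type libraries gave 81.9, 90.2 and 94.8 FPKM and those labelled IK-KO 60.0, 54.8 and 56.8 FPKM, with separate confidence bounds. The log2 change was −0.63 (SE 0.07, limma adjusted p 0.00121), and it kept its call in all 17 alternatives, between −0.69 and −0.58. Its 36 tested neighbours had a median change of 0.02.

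SNHG3 (chr1:28505980-28510892) carries SNORA73A and SNORA73B, the copies of a snoRNA known for a part in early cleavage of the ribosomal RNA precursor. It stood at 31.8, 30.3 and 28.8 FPKM in wild type, against 21.7, 24.1 and 22.7 FPKM in the IK-KO-labelled libraries, a difference of −0.39 on the log2 scale (SE 0.07, limma adjusted p 0.00784). Every wild type library was above every other library, by more than the confidence bounds. RCC1, the exchange factor of the nuclear transport protein Ran, overlaps SNHG3 on the same strand and begins 37 bases from it. RCC1 stood at 85.9 FPKM in wild type, against 91.4 FPKM in the other group (log2 change 0.09, limma adjusted p 0.353). How the quantification divided fragments of the overlapping stretch between this pair of genes is not known, so the level of SNHG3 is uncertain.

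SNHG26 (chr7:22854126-22872945) holds SNORD93 and is the lowest of the hosts that fell. It had 6.10, 5.20 and 5.93 FPKM in wild type, against 3.27, 3.14 and 2.69 FPKM in the IK-KO-labelled libraries. The groups did not overlap, but the bounds of single libraries did. The log2 change was −0.74 (SE 0.11, limma adjusted p 0.00503), which understates the ratio of 0.529 at such a level because of the added 1.

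**Figure D2:**
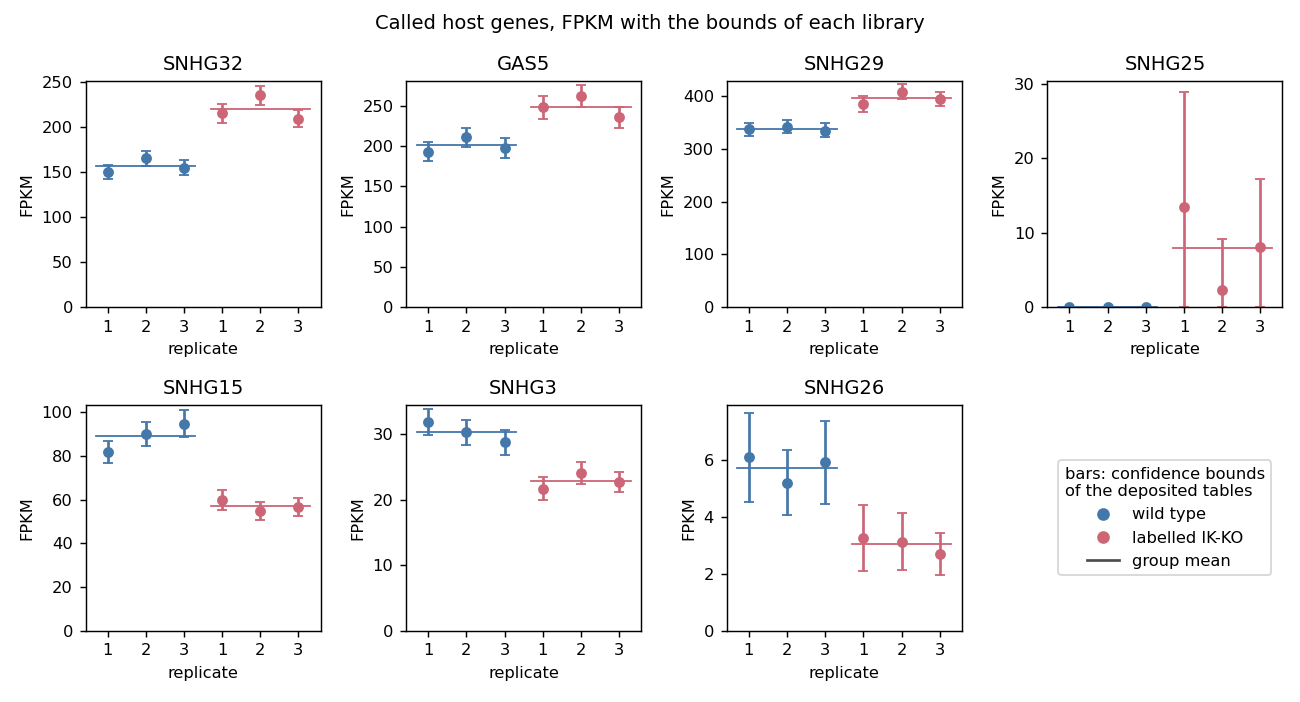
FPKM of the 7 called host genes by replicate, with the deposited confidence bounds of each library as bars and group means as lines, on axes that start at 0. In SNHG32, SNHG29, SNHG15 and SNHG3 the bars of the groups do not meet, while in SNHG25 every bar reaches 0.

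Groups without overlap were seen in 11 of the 27 hosts, or 40.7%, against 39.0 percent of all tested genes. The group labelled IK-KO was the higher one in 6 (20.9 percent of all genes) and the lower one in 5 (18.1 percent). SNHG25 is among the 11 and the 6. It passed the filter only through the higher group, so it had to be apart. Besides the 7 that were called these were SNHG19, ZFAS1, DANCR and SNHG6. The confidence bounds of the groups were apart in 4 hosts, against 9.33 percent of all genes. At an unadjusted p under 0.05 the number was 12 hosts, SNHG25 among them, or 44.4%, against 33.4% of all genes.

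ZFAS1, which begins at the promoter of the zinc finger gene ZNFX1 on the opposite strand and holds SNORD12, SNORD12B and SNORD12C, stood at 94.1, 96.1 and 96.3 FPKM in wild type, against 98.2, 112 and 111 FPKM in the IK-KO-labelled libraries. The first library of the latter group was nearest to wild type. The log2 change of 0.16 was not called (95% interval 0.02 to 0.30, limma adjusted p 0.116), but it was without that library (limma adjusted p 0.0391). The other 16 alternatives gave no call, and over all 17 the log2 change lay between 0.10 and 0.22. ZNFX1, whose start is 248 bases away, stood at 7.97 and 7.31 FPKM (limma adjusted p 0.469).

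DANCR, an RNA known for holding back differentiation of progenitor cells, contains SNORA26. It had 150, 141 and 144 FPKM in wild type, against 134, 137 and 133 FPKM in the IK-KO-labelled libraries. Its log2 change of −0.11 was small and not called (95% interval −0.21 to −0.0009, limma adjusted p 0.146). Quantile normalization gave it a call at a limma adjusted p of 0.039, and the other 16 alternatives did not, with adjusted p as high as 0.322.

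SNHG1, with 8 C/D box snoRNAs (SNORD22, SNORD25 to SNORD31), stood at 138, 146 and 132 FPKM in wild type, against 149, 145 and 147 FPKM in the IK-KO-labelled libraries. The groups overlapped, and the log2 change was 0.09 (95% interval −0.03 to 0.20, limma adjusted p 0.288). SLC3A2, the heavy chain of large amino acid transporters, starts 51 bases away on the opposite strand. It was at 95.4, 102 and 96.1 FPKM in wild type, against 151, 156 and 143 FPKM in the other group, a difference of 0.61 on the log2 scale (SE 0.05, limma adjusted p 0.000487). The difference between the changes of this divergent pair was not tested.

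EPB41L4A-AS1, the host of SNORA13, had 15.5, 14.1 and 16.1 FPKM in wild type, against 14.8, 20.4 and 15.7 FPKM in the IK-KO-labelled libraries. Only replicate 2 of the latter lay above the wild type range. The log2 change was 0.14 (95% interval −0.16 to 0.43, limma adjusted p 0.494).

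The abundant C/D box hosts SNHG6 and SNHG5 were both higher in mean without a call. SNHG6 stood at 493, 588 and 515 FPKM in wild type, against 592, 608 and 618 FPKM in the IK-KO-labelled libraries, a log2 change of 0.19 (limma adjusted p 0.0946), and wild type replicate 2 came near to the other group. Without that library SNHG6 was called at a limma adjusted p of 0.0171, and with quantile normalization its change was 0.10 (0.332). SNHG5 stood at 259, 271 and 288 FPKM against 316, 355 and 287 FPKM, where replicate 3 of the IK-KO-labelled libraries fell inside the wild type range. Its log2 change was 0.22 (limma adjusted p 0.104), called without that library at 0.0482, and without replicate 2 of the same group it was 0.15 (0.233). SNHG8, host of SNORA24, was at 212, 236 and 232 FPKM against 192, 225 and 188 FPKM (log2 change −0.17, limma adjusted p 0.189), and was called without replicate 2 of the IK-KO-labelled libraries at 0.0489, while with the regional median removed its change was −0.08 (0.627). SNHG6, SNHG5 and SNHG8 were each called in 1 of the 17 alternatives.

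SNHG19 and SNHG9, short hosts of SNORD60 and SNORA78 near the end of the short arm of chromosome 16, varied widely within groups. SNHG19 stood at 50.9, 38.1 and 49.4 FPKM in wild type, against 30.7, 34.9 and 14.1 FPKM in the IK-KO-labelled libraries. Its log2 change of −0.86 had a 95% interval from −1.59 to −0.12 and was not called (limma adjusted p 0.0999). Without replicate 3 of the IK-KO-labelled libraries it was −0.47. SNHG9 was at 22.9, 23.2 and 1.75 FPKM in wild type against 18.3, 27.9 and 9.51 FPKM, and its log2 change of 0.63 became −0.42 without wild type replicate 3. Along with SNHG25 these are the 3 tested hosts with under 700 exon bases, a split chosen after their values were seen. Their confidence bounds had a relative width, as a share of the value on each side, from 26.7% to 194%, against 3.55% to 38.1% in the other tested hosts.

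SNHG7, which holds SNORA17A and SNORA17B near the end of the long arm of chromosome 9, was at 35.8, 29.0 and 37.3 FPKM in wild type, against 36.6, 39.0 and 36.5 FPKM in the IK-KO-labelled libraries, a log2 change of 0.14 (limma adjusted p 0.372). Its 65 tested neighbours had a median change of −0.37. Relative to them SNHG7 was higher by 0.50 on the log2 scale, with a limma adjusted p of 0.0117.

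The remaining tested hosts had log2 changes between −0.24 (SNHG20) and 0.15 (SNHG16). The value of SNHG20 depended on single libraries, at −0.01 without wild type replicate 1 and −0.45 without wild type replicate 3. SNHG16, with SNORD1A to SNORD1C, stood at 49.2 ± 1.05 FPKM in wild type, against 54.6 ± 4.18 FPKM in the other group (SD, n = 3, limma adjusted p 0.177). SNHG14, the long host of the SNORD115 and SNORD116 clusters in the Prader-Willi region, was at 41.8 ± 5.44 and 42.4 ± 1.18 FPKM. SNRPN, at 114 and 123 FPKM, overlaps SNHG14 on the same strand. How fragments were divided between them is not known, so the level of SNHG14 is uncertain. The hosts SNHG17 and SNHG11, neighbours on chromosome 20 that share the SNORA71 family, were at 44.2 ± 7.32 and 42.1 ± 4.28 FPKM and at 19.6 ± 2.94 and 18.9 ± 2.03 FPKM. SNHG12 stood at 15.6 and 15.4 FPKM, SNHG4 at 14.8 and 14.9 FPKM, and SNHG30 at 9.15 and 8.15 FPKM in wild type and the IK-KO-labelled libraries. The hosts of a scaRNA, SNHG10, SNHG21 and SNHG20, had lower means, at 11.8 and 11.0, 7.13 and 6.67, and 4.96 and 3.90 FPKM. Of the 20 tested hosts that were not called, 16 had a 95% interval within 0.5 on either side of 0, so changes beyond that size were outside the interval in these, but not in SNHG9, SNHG19, SNHG10 and SNHG20.

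Genes that overlap a host, or start within 2000 bases of it on the opposite strand, were read beside it because fragments may be shared and no source used here says whether strand was used in counting. There were 23 such pairs with a tested neighbour, and in 2 of them the neighbour was called, SLC3A2 beside SNHG1 and ACAA2 beside SNHG22. ACAA2, a thiolase of mitochondrial fatty acid oxidation whose start lies 12 bases from that of SNHG22, stood at 9.90, 8.98 and 7.73 FPKM in wild type, against 3.88, 4.48 and 3.49 FPKM in the IK-KO-labelled libraries, a difference of −0.99 on the log2 scale (SE 0.12, limma adjusted p 0.00221). SNHG22 was too low for the test: its lower confidence bound was 0 in 5 of 6 libraries, and the bounds overlapped between groups. ZBTB37, which begins 800 bases from GAS5, stood at 1.57 and 2.22 FPKM with a log2 change of 0.33 (limma adjusted p 0.134). GLRX5 beside SNHG10 had a log2 change of −0.20 (limma adjusted p 0.059), while RPS2 beside SNHG9, at 3010 and 3063 FPKM, had one of 0.02 (limma adjusted p 0.782). The other neighbours, among them TRNAU1AP, SNRPN, UBE3A, TRAF7, LRRC75A, SEC14L1, BARD1, SIL1, MATR3 and DIPK1B, had limma adjusted p from 0.171 to 0.959.

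**Figure D3:**
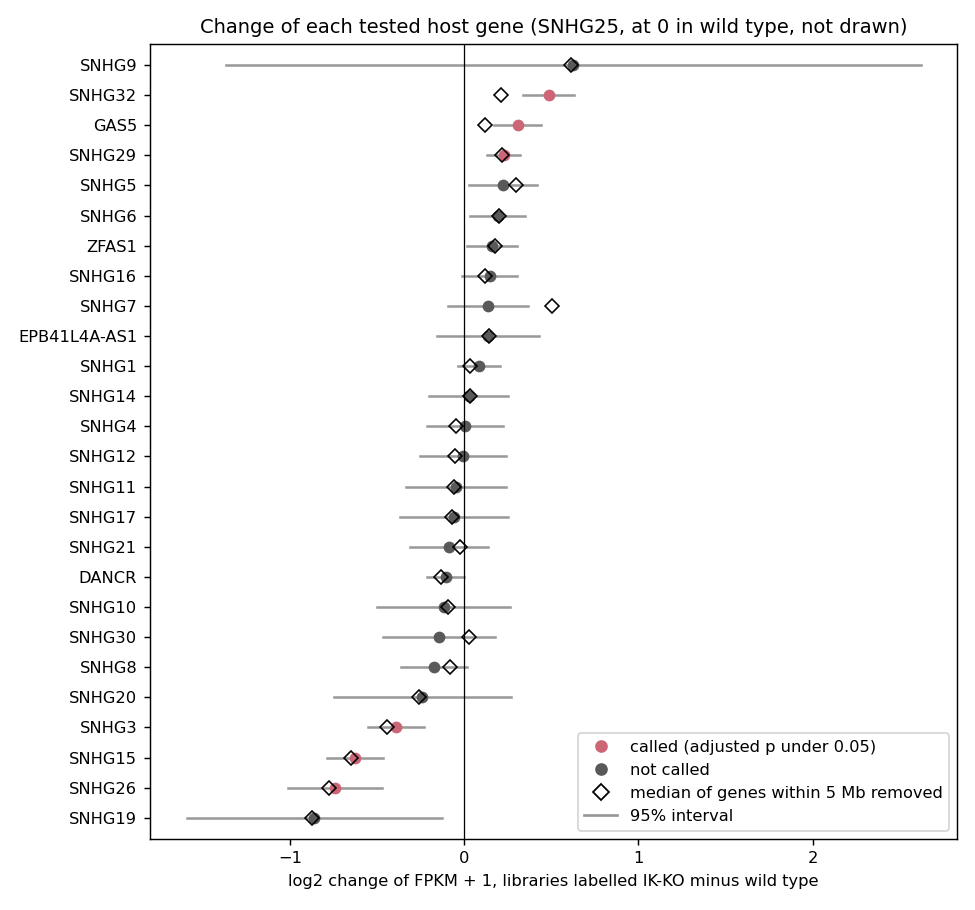
Log2 change of FPKM + 1 (IK-KO-labelled libraries minus wild type) of 26 tested hosts, as points with 95% intervals, red where called, and diamonds with the median change of tested genes within 5 Mb removed. GAS5 and SNHG32 move toward 0 and SNHG7 moves from 0.14 to 0.50, while SNHG15, SNHG26 and SNHG3 stay near their values.

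By the kind of small RNA, a grouping made after values were seen, the tested hosts with C/D box snoRNAs alone were higher in 8 of 11, with 2 called higher (SNHG32, SNHG29) and 1 called lower (SNHG26) and a median log2 change of 0.15. The 10 tested hosts with H/ACA box snoRNAs alone were higher in 4, and the 2 called, SNHG15 and SNHG3, were lower, with a median of −0.05. The 3 with both kinds are GAS5, called higher, SNHG12, not called, and SNHG25, which passed the filter only through 1 group. The 3 tested scaRNA hosts were lower without a call. The difference between these classes was not tested, and H/ACA and C/D hosts overlap in their values.

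Summed over all 32 hosts, the FPKM came to 2503, 2652 and 2532 in wild type and 2736, 2922 and 2710 in the IK-KO-labelled libraries. This was 0.411 to 0.419% of the FPKM outside mitochondrial transcripts in wild type and 0.435 to 0.457% in the other group, so the ranges were apart. A few genes set the sum: SNHG6, SNHG29 and SNHG5 held 43.5 to 45.3% of it in wild type and 47.0 to 47.9% in the IK-KO-labelled libraries. Between group means SNHG6 added 73.9 FPKM, SNHG32 63.2, SNHG29 57.9, GAS5 48.0 and SNHG5 46.9 FPKM, whereas SNHG15 fell by 31.8, SNHG8 by 25.0 and SNHG19 by 19.6 FPKM.

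**Figure D4:**
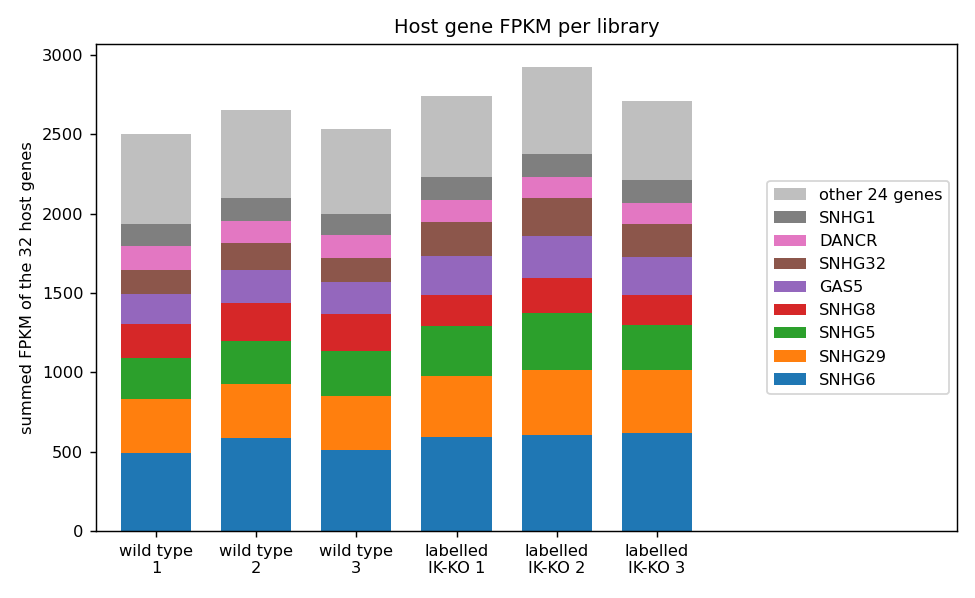
FPKM summed over the 32 host genes in each of the 6 libraries, stacked by the 8 most abundant genes and the other 24. The bars reach 2503 to 2652 in wild type and 2710 to 2922 in the IK-KO-labelled libraries, and SNHG6, SNHG29 and SNHG5 form the lower part of each.

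The starts of the hosts were read because a pyrimidine start and the core letters of IKAROS binding sites are both known features that could be looked up. RefSeq promoter windows on GRCh38, from 250 bases before to 50 after the first base, matched 28 hosts. SNHG6, SNHG9, SNHG15 and SNHG25 had no entry. In 4 hosts the RefSeq first base lay far from the start of the gene in the tables, by 1259 bases in SNHG12, 1927 in SNHG20, 37251 in SNHG27 and 154975 in SNHG14. Smaller distances included 464 bases in ZFAS1, 311 in SNHG11, 308 in SNHG32 and 199 in SNHG5. A start was counted as a terminal oligopyrimidine tract when the first base was C and at least 4 pyrimidines followed. Such a tract stood at the first base of 7 hosts, or 25%, against 4.07% of 35116 windows. Of these SNHG18 was listed at 0. The other 6 are shown from 10 bases before the first base, with the tract in capitals.
SNHG32: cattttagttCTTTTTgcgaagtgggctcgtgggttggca
SNHG5: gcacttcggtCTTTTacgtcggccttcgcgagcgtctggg
ZFAS1: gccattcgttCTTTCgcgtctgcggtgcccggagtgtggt
SNHG12: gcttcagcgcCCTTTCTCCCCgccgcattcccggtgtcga
SNHG4: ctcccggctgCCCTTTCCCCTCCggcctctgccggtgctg
SNHG19: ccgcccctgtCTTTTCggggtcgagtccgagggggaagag
These lie at chr6:31834906-31834945, chr6:85678704-85678743 (minus strand), chr20:49278632-49278671, chr1:28581844-28581883 (minus strand), chr5:139274091-139274130 and chr16:2155329-2155368 (minus strand). SNHG32 was called higher, SNHG5, ZFAS1 and SNHG4 had changes above 0 and SNHG12 and SNHG19 below it, so hosts with this start went both ways. A first base annotated at another position would hide or create a tract, so its absence in GAS5 and others says only that these letters are not at the annotated base. The letters TGGGAA, the core that IKAROS binds, were found on either strand in 7 of the 28 windows, or 25%, against 24% of all windows. Among the 5 called hosts with a window, SNHG3 and SNHG29 held them, one lower and the other higher.

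The proteins that assemble, translate and destroy these RNAs were examined with lists of genes. Of 23 snoRNP proteins and assembly factors, 2 were called, both lower, against 19.9% of all genes. NOLC1, which shuttles between nucleolus and Cajal body, fell from 89.3 ± 5.10 to 73.0 ± 4.75 FPKM (SD, n = 3, log2 change −0.29, limma adjusted p 0.0242), and RUVBL1, an ATPase of snoRNP assembly, fell from 73.7 to 63.5 FPKM (limma adjusted p 0.0325). The list had a median log2 change of −0.07, and its calls ranged from 0 (without wild type replicate 1, wild type replicate 2 or IK-KO replicate 1) to 4 (without wild type replicate 3) when single libraries were left out.

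Of 20 factors of nonsense-mediated decay, which degrades many spliced hosts, 2 were called, both higher, or 10.0% against 19.9% of all genes. SMG5 rose from 37.7 ± 0.0721 to 47.2 ± 1.56 FPKM (SD, n = 3, log2 change 0.31, limma adjusted p 0.00623), beside a median of 0.24 among its neighbours within 5 Mb, and RBM8A, a protein of the exon junction complex, rose from 173 to 208 FPKM (limma adjusted p 0.0088). The list's median was 0.0041.

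Of 23 genes of the RNA exosome and of 5′ decay, 5 were called, or 21.7% against 19.9% of all genes. EXOSC4 rose from 33.5 ± 4.26 to 45.1 ± 2.46 FPKM (SD, n = 3, log2 change 0.42, limma adjusted p 0.0232), and the nuclear exonuclease XRN2 rose from 63.4 to 74.7 FPKM. The exosome subunits EXOSC3, EXOSC5 and EXOSC2 fell, EXOSC3 from 55.4 ± 6.08 to 43.0 ± 1.42 FPKM (log2 change −0.35, limma adjusted p 0.0281), where its neighbours had a median of −0.32. Subunits of the same complex thus had changes of opposite sign. Between 0 and 2 of the 23 were called when any single library was left out, and the lowest count was without replicate 2 of the IK-KO-labelled libraries.

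Of 17 regulators of RNAs with a pyrimidine start, 4 were called, or 23.5% against 19.9% of all genes, and 14 of the 17 had changes above 0. The 4 were all higher, as were 10.1% of all genes. EIF4EBP1, the repressor of cap-dependent translation that mTOR inactivates, had 50.4, 50.9 and 46.0 FPKM in wild type, against 108, 115 and 104 FPKM in the IK-KO-labelled libraries (log2 change 1.14, SE 0.06, limma adjusted p 9.32e-05). RPTOR, the scaffold of mTOR complex 1, rose from 20.7 ± 1.22 to 31.4 ± 2.23 FPKM (log2 change 0.58, limma adjusted p 0.00276). EIF4EBP2 rose from 31.6 to 38.4 FPKM and LARP1, which binds the tract itself, from 71.9 to 83.5 FPKM. The median log2 change of the list was 0.08, beside 0.0168 for all genes. A shift of the list as a whole was not tested.

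Protein-coding genes also carry snoRNAs in their introns, and 161 of 180 such hosts passed the filter. Of these 34 were called, or 21.1% against 19.9% of all genes, 17 higher and 17 lower, with a median log2 change of 0.01. TRO stood at 0.232, 0.278 and 0.292 FPKM in wild type, against 1.51, 1.23 and 3.88 FPKM in the IK-KO-labelled libraries (log2 change 1.25, limma adjusted p 0.0289). TRO passed the filter only through the latter group, and with no filter its limma adjusted p was 0.0959. Its call supports no count here, although the 34 and the 17 higher include it. ASTN2 fell from 2.96, 2.72 and 2.61 FPKM to 0.998, 1.16 and 0.853 FPKM (log2 change −0.91, limma adjusted p 0.00494), with a median of −0.39 among its neighbours on chromosome 9. Of the 28 ribosomal protein genes in this list 6 were called, or 21.4% against 19.9% of all genes. Of these 1 was higher and 5 lower, where 10.1% of all genes were called higher and 9.75% lower. With or without a call, 13 of the 28 were higher, and their median log2 change was −0.02. Among the other 133 hosts, TRO included, 28 were called (21.1%), 16 higher and 12 lower.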

How the data were processed

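The deposited tables hold 1 FPKM value per gene and library, scaled by the authors for transcript length and library depth, with confidence bounds on either side. The submitters' processing notes name STAR 2.6.1c, Cufflinks 2.2.1, HOMER 4.10 and hg38; the supplementary RNA-seq methods of the study describe a mouse alignment and merged technical replicates. The annotation and strand setting are not given in the sources used here. Each table has 60752 rows, summed where an identifier lay on several (110 identifiers), and 29 rows not estimated in at least 1 library were left out. No counts are given, so read depth is unknown. Summed FPKM was 699352 to 738051 per library, with 13.0 to 14.4% mitochondrial and 21254 to 21887 rows above 0.

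Groups came from the labels. Log2(FPKM + 1) was fitted with limma 3.58.1 in R 4.3.3 (mean-variance trend, two-sided, Benjamini-Hochberg over 12652 genes with a mean of at least 1 FPKM). A gene was called at an adjusted p under 0.05, and the fit was tested on simulated data. A permutation test of 3 against 3 libraries cannot go below 0.1, so none was used. The members and gene lists were chosen with earlier results of these data known. Values in every library are given for IKZF1, called hosts, GAS5, ZFAS1, EPB41L4A-AS1, DANCR, SNHG1 and hosts at 0 in only 1 group. From each list the called genes with the largest rise and fall are named, and for each host the genes that overlap it or start within 2000 bases. Others were chosen after their values were seen. Positions are on GRCh38 (GENCODE 44), counted from 1, and small RNA content and promoter windows are from RefSeq (GRCh38.p14). Alternatives changed the pseudocount, filter, scaling, libraries, replicate block, regional median, variance trend and failed estimates.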

Additional observations from a re-analysis of the deposited data

How the results depend on the processing

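Over 17 alternatives the number of called hosts stayed between 6 and 8 of 27, and SNHG32, SNHG15, SNHG3 and SNHG26 were called in each. So was SNHG25, whose call supports no count, so each of these numbers includes it. GAS5 was not called with the regional median removed (limma adjusted p 0.287), nor SNHG29 without the variance trend (0.0517). Among all genes 1692 to 2861 were called, against 2515. No pairing by replicate number was seen (correlations of deviations 0.0669, 0.0248 and 0.00546), and the replicate block left 7 hosts called and 1805 of all genes.

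The short lists moved more. Limma called 2 snoRNP proteins, against 1 with no filter, 5 with quantile normalization, 4 with scaling without mitochondrial transcripts, and 0 to 4 without single libraries (4 to 7 unadjusted). With the replicate block 0 were called (6 at an unadjusted p under 0.05) and without the trend 0 (4 unadjusted). Of the exosome and decay genes 5 were called, against 3 with no filter, 1 with the replicate block, 3 with the regional median removed, 3 without the trend, and 0 to 2 without single libraries (5 to 8 unadjusted). Of the nonsense-mediated decay factors 1 was called with the regional median removed.

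Hosts that were not called changed sign as follows. With median scaling SNHG12 stood at 0.0067 (log2), with scaling without mitochondrial transcripts SNHG14 at −0.0054 and SNHG4 at −0.0258, and with the regional median removed SNHG30 at 0.026 and SNHG4 at −0.0447. Without single libraries the changes ran as follows: SNHG12 from −0.11 to 0.0835, SNHG17 from −0.20 to 0.0377, SNHG11 from −0.14 to 0.0636, SNHG14 from −0.0793 to 0.10, SNHG9 from −0.42 to 1.15, SNHG4 from −0.0514 to 0.0798 and SNHG10 from −0.27 to 0.0526. The cause was not tested. Intervals as wide as that of SNHG9 leave changes of over 2-fold either way within them, and the short hosts have wide bounds; the read depth behind them is unknown.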

Other observations

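Of the 5 small RNAs inside the hosts that were listed above 0 in any library, none was seen in all 6. SNORA73B, inside SNHG3, was listed at 31.9 FPKM in wild type replicate 3 and at 0 in the other 5 libraries. SNORA73A, also inside SNHG3, was above 0 only at 1.07e-50 FPKM in wild type replicate 3, which is 0 in practice. SNORA71B, inside SNHG17, was at 3.40 and 8.60 FPKM in wild type replicates 1 and 3 and at 16.2 FPKM in replicate 2 of the libraries labelled IK-KO. SNORA74A, inside SNHG4, was at 22.0 FPKM in replicate 3 of the libraries labelled IK-KO, and SCARNA13, inside SNHG10, at 3.15 FPKM in replicate 1 of that group.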
